A study of Populus alba x Populus glandulosa with 12 samples.

Results

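Genes annotated as WRKY transcription factors were followed in poplar leaves through 9 days of drought. The members were all genes whose KEGG orthology (KO) name, the functional name given in the authors' table, begins with WRKY; 27 of 85392 gene models met this rule. Of these, 8 were named WRKY33, 4 WRKY22, 4 carried both WRKY22 and WRKY29, 5 were named WRKY1 and 6 WRKY2. KO names cover only a part of the WRKY family, so WRKY genes without such a name are not described. All 27 members stood on the KEGG plant-pathogen interaction map and 16 on the MAP kinase signalling map. The gene ontology terms in the table placed all 27 in the nucleus with sequence-specific DNA binding. Gene identifiers have the form Pag.A13G001064.v3.1 and are shortened to A13G001064; 14 members carry the letter A and 13 the letter B. The table does not state what the letters stand for.

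The plants were wild-type 84K poplar, a clone from the cross Populus alba x Populus glandulosa. Leaves were sampled 0, 3, 6 and 9 days into drought, and each day has 3 RNA libraries out of 12. Day 0 was the control, labelled CK, and watered plants of the later days were not analysed here, so time and drought cannot be told apart. The labels also give each day a batch of its own, so a batch effect and a day effect cannot be told apart. Replicates are described as biological, without a statement that they came from separate plants, and p-values measure the spread between these libraries.

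WRKY proteins are plant transcription factors that bind the W-box, a short DNA element found in the promoters of many defence and stress genes, including WRKY genes themselves. In Arabidopsis, WRKY33 is phosphorylated by the MAP kinases MPK3 and MPK6, is held in a complex with MPK4 and its substrate MKS1, and is needed for synthesis of the antimicrobial compound camalexin. WRKY22 and WRKY29 act in Arabidopsis at the end of a MAP kinase cascade started by the flagellin receptor FLS2, and WRKY22 also takes part in dark-induced leaf senescence. In barley, WRKY1 and WRKY2 repress basal defence and bind the intracellular immune receptor MLA. A KO name assigned by similarity does not show that a poplar gene has these roles.

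Values were FPKM, which are scaled to gene length and library, so levels may be set side by side between genes. The FPKM sums of the libraries lay between 684857 and 732119, and read totals were not used here, so sequencing depth is unknown. Libraries of 1 day correlated with each other at a mean Pearson r of 0.970 to 0.975 across tested genes, libraries of days 0 and 3 at 0.897, of days 0 and 6 at 0.653, of days 0 and 9 at 0.649, and of days 6 and 9 at 0.964. Of the leaf markers, the 27 mesophyll genes (rbcS, LHCB1 and LHCB2) summed to 15200 to 15600 FPKM at day 0, 6630 to 7870 at day 3, 301 to 315 at day 6 and 297 to 374 at day 9, so the labelled tissue was plain at day 0 and its markers were low, though not at 0, from day 6. The 2 guard cell names went opposite ways. The 4 FAMA genes, named for a guard cell differentiation factor, summed to 19.1 to 21.7 FPKM at day 0, 14.1 to 16 at day 3, 2.07 to 2.20 at day 6 and 1.05 to 1.93 at day 9. The 12 genes of the SLAC1 anion channel name summed to 7.76 to 10.8, 8.51 to 16.8, 40.0 to 47.7 and 37.6 to 45.2 FPKM on those days. The 42 vascular and wood genes (IRX names) summed to 226 to 233, 173 to 176, 127 to 136 and 123 to 124 FPKM on days 0, 3, 6 and 9, and the 10 dividing-cell genes (CYCD3) to 43.7 to 46.3, 27.0 to 28.2, 16.3 to 18.2 and 12.4 to 15.5. Of the marker genes, 3 mesophyll, 6 guard cell, 10 vascular and 0 dividing-cell genes were listed at 0 in every library. In leaf tissue, fewer cells of a type and less RNA per cell cannot be told apart; the part of these shifts in the WRKY results below was not tested.

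The summed FPKM of the 27 WRKY genes was 168, 164 and 166 in the day 0 libraries, 202, 202 and 205 at day 3, 412, 419 and 410 at day 6, and 426, 419 and 419 at day 9. Every later library exceeded every day 0 library, and those of days 6 and 9 lay far above those of day 3. Most of that gain was WRKY33. The 8 WRKY33 genes summed to 90.7 ± 1.38 FPKM at day 0, 115 ± 2.48 at day 3, 324 ± 3.15 at day 6 and 331 ± 7.75 at day 9 (SD, n = 3). They made up 54.7% ± 0.192 of WRKY FPKM at day 0, 56.7% ± 0.658 at day 3, 78.3% ± 0.180 at day 6 and 78.6% ± 1.19 at day 9.

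The sums of the other names changed by fewer FPKM. WRKY22 genes summed to 6.34 ± 0.888, 8.67 ± 1.03, 12.9 ± 1.27 and 16.5 ± 1.30 FPKM on days 0, 3, 6 and 9, and thus stood higher at each later time. WRKY1 genes summed to 32.1 ± 1.42, 36.6 ± 1.67, 41.8 ± 0.419 and 40.0 ± 1.93 FPKM. WRKY2 genes reached their highest sum at day 3, at 35.2 ± 0.710 FPKM at day 0, 41.8 ± 1.07 at day 3 and 33.7 ± 0.280 at day 6, and between 31.8 and 34.25 in the day 9 libraries. The 4 genes with both WRKY22 and WRKY29 stayed near the lower end of the scale, at 1.64 ± 0.605, 0.810 ± 0.342, 1.38 ± 0.174 and 0.543 ± 0.444 FPKM.

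Each gene was tested with limma on log2(FPKM + 1), so a change given in log2 is on that scale and understates the change of low genes. A gene was tested if it reached an FPKM of 1 in at least 3 of the 12 libraries, which 40736 gene models did, and called at a Benjamini-Hochberg adjusted p under 0.05 over all of them. Among WRKY genes 21 passed this filter and 6 did not. A13G000510, a WRKY2 gene, passed only through days 0 and 3, where it was high, so a difference from the later days was built into its selection. The WRKY22 genes A14G000882 and B14G000834 had 2 of 3 day 0 libraries above 1 FPKM and all later libraries above it.

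On day 3, 12 of the 21 tested WRKY genes were called higher than on day 0 and 0 lower; of all tested genes 47.7% were called, 22.6% higher and 25.2% lower. The 9 others did not pass the test. The median WRKY change was 0.23 in log2, beside -0.01 over all tested genes. On day 6, 13 were called higher and 1 lower (A13G000510) than on day 0, where 76.8% of all tested genes were called, 29.2% higher and 47.6% lower. The median WRKY change was then 0.38, beside -0.21 over all tested genes. On day 9, 13 were called higher and 2 lower, where 76.9% of all genes were called, 30.9% higher and 46.0% lower, with medians of 0.34 for WRKY genes and -0.18 for all. The 3 comparisons share the day 0 libraries. In all, 10 WRKY genes were called higher on each of days 3, 6 and 9, and 4 were called on none of them.

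The steps between later days were tested as well. From day 3 to day 6, 8 WRKY genes were called higher and 3 lower on day 6, where 72.6% of all tested genes were called, 25.7% higher and 46.9% lower. Median-ratio scaling, which moves the median of all tested genes in this step from -0.22 to 0.01, gave 12 higher and 1 lower. Between day 6 and day 9 there was less movement: 3 WRKY genes were called higher and 2 lower on day 9, where 21.7% of all genes were called, 12.9% higher and 8.73% lower, and median-ratio scaling gave 1 higher and 4 lower. On the scale against day 0, the same scaling moved the all-gene median at day 6 to 0.01 and at day 9 to 0.00, and gave 17 WRKY genes higher and 1 lower at day 6 and 15 higher and 1 lower at day 9. The median changes of the WRKY33 genes (0.59, 1.91 and 1.84 on days 3, 6 and 9) and of the WRKY22 genes (0.33, 0.86 and 1.15) also lay above that of all genes under this scaling.

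**Figure D1:**
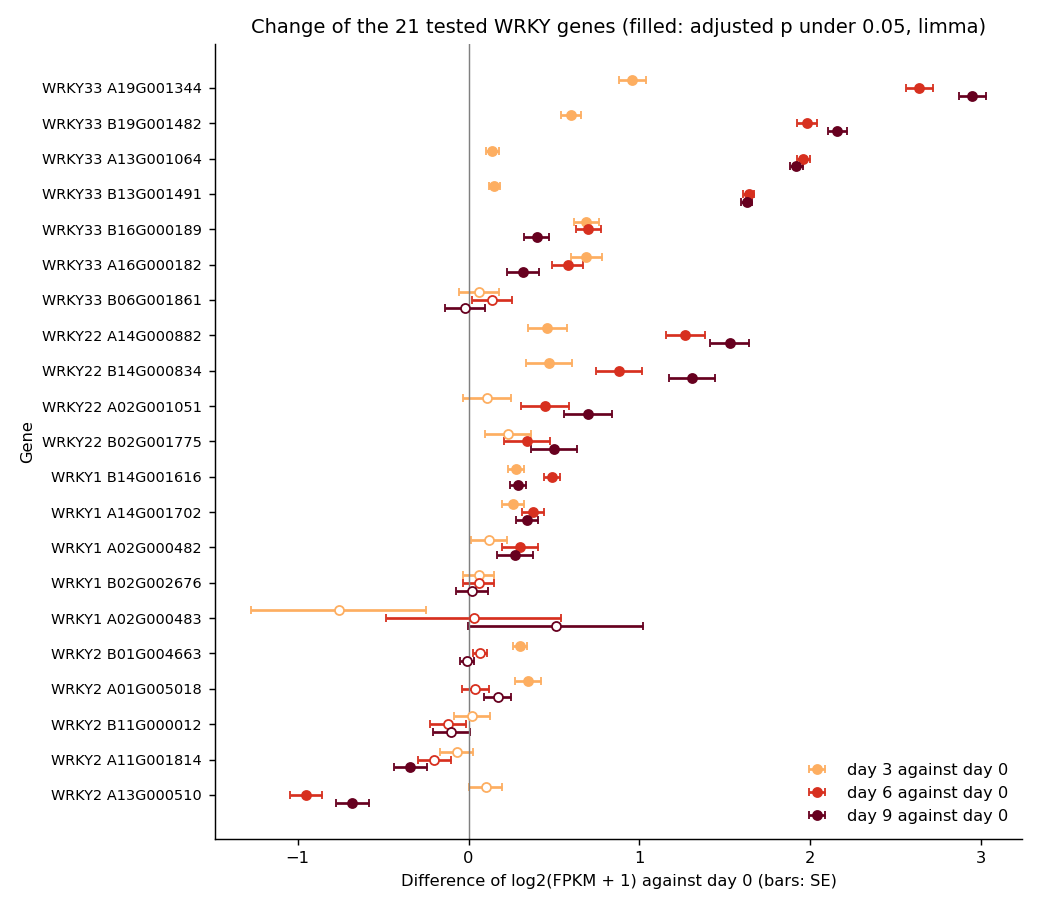
Change of each of the 21 tested WRKY genes against day 0, as the difference of log2(FPKM + 1) with its limma standard error (horizontal bars), for days 3, 6 and 9. Filled points were called at an adjusted p under 0.05. On days 6 and 9 the WRKY33 genes numbered 19 and 13 lie farthest to the right, and the WRKY2 gene A13G000510 farthest to the left.

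Of the 8 genes named WRKY33, 7 were tested, and 6 of these were called higher than on day 0 on each of days 3, 6 and 9. The median change of the 7 was 0.60 at day 3, 1.64 at day 6 and 1.63 at day 9. Their time courses differed, and they fell into pairs of an A and a B gene with the same number in the identifier (numbers 13, 19, 16 and 06).

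The most abundant WRKY genes were the number 13 pair. B13G001491, with the highest mean over all libraries (74.1 FPKM), had 34.26, 35.96 and 35.24 FPKM at day 0, 38.54, 39.58 and 39.02 at day 3, 112.80, 112.74 and 109.17 at day 6, and 112.63, 108.94 and 110.85 at day 9. A13G001064 had 30.00, 28.38 and 28.78 FPKM at day 0, 32.11, 31.25 and 33.26 at day 3, 114.13, 116.37 and 117.01 at day 6, and 115.55, 109.75 and 112.87 at day 9. In both genes the day 3 libraries lay just above the day 0 libraries without overlap, while the libraries of days 6 and 9 lay far above both and overlapped each other. On day 3 the difference from day 0 was 0.15 ± 0.032 in log2 for B13G001491 (SE, limma adjusted p = 0.00261) and 0.14 ± 0.037 for A13G001064 (adjusted p = 0.00691), about 1.11 times the day 0 mean in each. On day 6 it was 1.64 ± 0.032 for B13G001491 (limma adjusted p = 1.16e-12), at 3.17 times the day 0 mean, and 1.96 ± 0.037 for A13G001064 (adjusted p = 8.20e-13), at 3.99 times. The step between days 3 and 6 carried nearly all of this, with 1.49 for B13G001491 (limma adjusted p = 9.30e-12) and 1.82 for A13G001064 (adjusted p = 5.94e-12). Day 9 did not differ from day 6 beyond the threshold in either (-0.01, limma adjusted p = 0.873, and -0.04, adjusted p = 0.498).

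The number 19 pair stood higher at each later day. A19G001344 had 4.37, 3.31 and 4.05 FPKM at day 0, 9.11, 7.79 and 8.66 at day 3, 29.30, 29.85 and 29.24 at day 6, and 36.02, 38.42 and 36.27 at day 9. B19G001482 had 12.27, 11.73 and 12.36 FPKM at day 0, 18.06, 19.09 and 19.34 at day 3, 50.31, 52.06 and 49.39 at day 6, and 62.68, 52.79 and 57.28 at day 9. No library of 1 day overlapped those of another in either gene. A19G001344 had the largest rise of any WRKY gene, with mean FPKM on day 9 of 9.44 times and on day 6 of 7.54 times that of day 0 (log2 2.95 ± 0.078, limma adjusted p = 1.41e-11, and 2.64 ± 0.078, adjusted p = 3.45e-11). Already on day 3 it stood 0.96 ± 0.078 above day 0 (limma adjusted p = 1.23e-06). B19G001482 stood 0.60 ± 0.058 above day 0 at day 3 (limma adjusted p = 5.44e-06), 1.98 at day 6 (adjusted p = 3.14e-11) and 2.16 at day 9 (adjusted p = 1.58e-11), the last at 4.75 times the day 0 mean. Between days 3 and 6 the gain was 1.68 for A19G001344 and 1.38 for B19G001482 (limma adjusted p = 3.58e-09 and 1.49e-09).

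The further gain of the number 19 pair on day 9 over day 6 was small, at 0.31 ± 0.078 for A19G001344 (limma adjusted p = 0.0148) and 0.18 ± 0.058 for B19G001482 (adjusted p = 0.0459). The A19G001344 call was lost without day 9 replicate 2 (limma adjusted p = 0.05, over a range of 0.00402 to 0.05 across the alternatives run). The B19G001482 call was lost in 15 alternatives, among them the removal of any library but day 3 replicate 1 and day 9 replicate 2 (limma adjusted p between 0.0539 and 0.138 on those removals, and 0.011 to 0.214 over all alternatives).

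The number 16 pair was highest on days 3 and 6. A16G000182 had 4.57, 4.22 and 3.76 FPKM at day 0, 6.83, 6.98 and 8.26 at day 3, 6.20, 6.98 and 7.00 at day 6, and 4.93, 6.00 and 5.42 at day 9. B16G000189 had 4.83, 4.17 and 4.41 FPKM at day 0, 7.71, 7.62 and 8.20 at day 3, 7.56, 7.64 and 8.49 at day 6, and 5.63, 6.50 and 6.59 at day 9. In both genes each later library exceeded each day 0 library, and days 3 and 6 overlapped. On day 3 both stood 0.69 above day 0 (SE 0.092 for A16G000182 with limma adjusted p = 7.38e-05, and SE 0.073 for B16G000189 with adjusted p = 1.13e-05), beside 0.14 and 0.15 in the number 13 pair on that day. The difference had shrunk by day 9, to 0.32 for A16G000182 (limma adjusted p = 0.00805) and 0.40 for B16G000189 (adjusted p = 3.41e-04). B16G000189 differed by -0.30 on day 9 against day 6 (limma adjusted p = 0.0143), a call lost without day 6 replicate 3 (adjusted p = 0.0569, range 0.00371 to 0.0569). A16G000182 differed by -0.26 (limma adjusted p = 0.0639), and passed without day 9 replicate 2 (-0.32, adjusted p = 0.0455).

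The number 06 genes were the lowest of the WRKY33 group. B06G001861 had 1.11, 0.86 and 1.10 FPKM at day 0, 1.36, 1.01 and 0.98 at day 3, 1.39, 1.22 and 1.07 at day 6, and 1.29, 0.78 and 0.92 at day 9. Its libraries overlapped between all days, and it was called in no comparison (differences against day 0 of 0.06, 0.14 and -0.02), though on day 6 it passed under median-ratio scaling (0.29, limma adjusted p = 0.0481). A06G001965 was below the filter, with 0.76, 0.78 and 0.89 FPKM at day 0, 0.43, 0.20 and 0.37 at day 3, 0.32, 0.37 and 0.21 at day 6, and 0.34, 0.42 and 0.33 at day 9. All its later libraries lay below those of day 0, while the 6 called WRKY33 genes stood above day 0. Without the filter limma called it lower on day 3 (-0.44, adjusted p = 0.00139), day 6 (-0.48, adjusted p = 3.52e-04) and day 9 (-0.41, adjusted p = 0.00108).

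**Figure D2:**
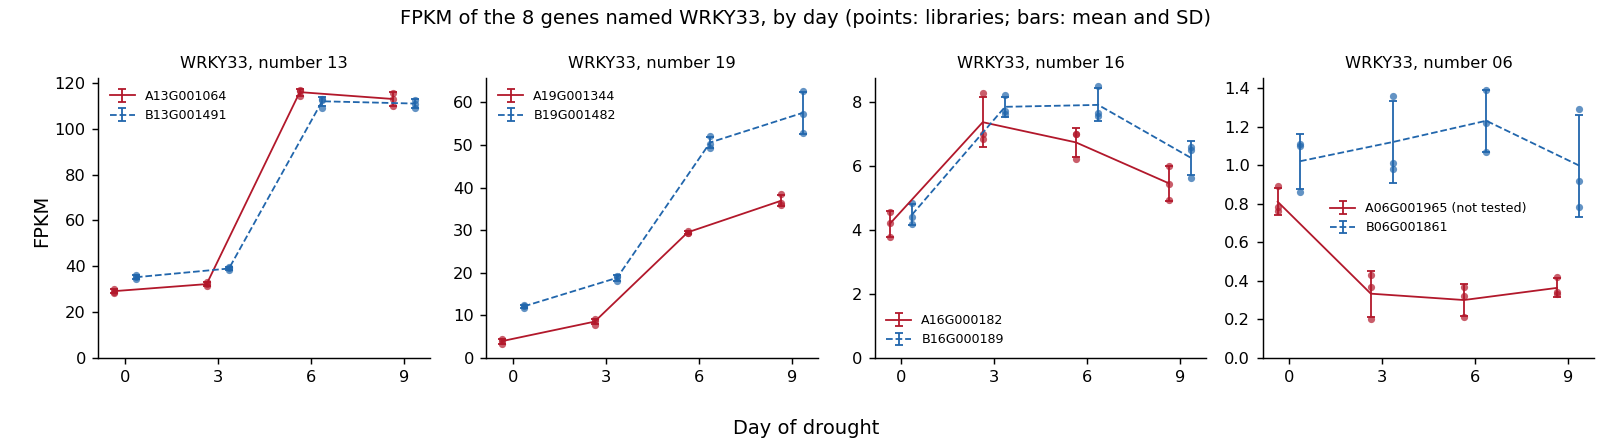
FPKM of the 8 WRKY33 genes by day of drought, 1 panel per identifier number, with the A gene in red and solid and the B gene in blue and dashed. Points are libraries and bars the mean with SD (n = 3); the number 13 pair steps up between days 3 and 6 to above 109 FPKM, the number 19 pair climbs through day 9, and the number 16 pair peaks on days 3 to 6.

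All 4 genes named WRKY22 were called higher on days 6 and 9 than on day 0, and 2 of them already on day 3; the median change was 0.34, 0.66 and 1.00 on days 3, 6 and 9. A14G000882 had 1.28, 0.79 and 1.23 FPKM at day 0, 1.99, 2.10 and 1.55 at day 3, 4.16, 4.36 and 3.61 at day 6, and 5.37, 4.59 and 5.17 at day 9. B14G000834 had 1.24, 0.75 and 1.07 FPKM at day 0, 2.07, 1.43 and 1.90 at day 3, 2.43, 3.42 and 2.34 at day 6, and 3.69, 4.35 and 3.89 at day 9. In both genes no library of 1 day overlapped those of another. On day 9 A14G000882 reached 4.58 times its day 0 mean (log2 1.53 ± 0.114, limma adjusted p = 1.48e-07) and B14G000834 3.90 times (1.31 ± 0.135, adjusted p = 2.89e-06). On day 6 the differences were 1.27 (limma adjusted p = 8.10e-07) and 0.88 (adjusted p = 8.67e-05), and on day 3 0.46 (adjusted p = 0.00600) and 0.47 (adjusted p = 0.0133). The day 3 call of B14G000834 was lost without day 0 replicate 2 (0.37, limma adjusted p = 0.0578) or day 3 replicate 1 (0.40, adjusted p = 0.0529), over a range of 0.00686 to 0.0578.

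Between days 3 and 6 A14G000882 gained 0.81 (limma adjusted p = 5.21e-05), while its difference of 0.26 on day 9 over day 6 did not pass (adjusted p = 0.130). B14G000834 gained 0.41 (limma adjusted p = 0.0172, range 0.00159 to 0.0770), a call lost without day 3 replicate 2 (0.31, adjusted p = 0.0739) or day 6 replicate 2 (0.28, adjusted p = 0.0770). The further gain of B14G000834, 0.43 on day 9 over day 6 (limma adjusted p = 0.0444), was lost in 12 alternatives (adjusted p of 0.0167 to 0.141 over all), among them the removal of any day 9 library, of day 6 replicate 1 or 3, of day 3 replicate 3 and of day 0 replicate 3. Of the 4 WRKY22 genes it was the 1 called in this step, and 0 were called under median-ratio scaling.

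The number 02 pair of WRKY22 showed smaller differences. A02G001051 had 1.81, 1.86 and 2.79 FPKM at day 0, 3.04, 1.95 and 2.20 at day 3, 3.14, 3.63 and 3.09 at day 6, and 3.61, 4.34 and 4.34 at day 9. B02G001775 had 1.87, 2.13 and 2.20 FPKM at day 0, 2.74, 2.44 and 2.60 at day 3, 2.57, 2.99 and 3.06 at day 6, and 2.41, 4.30 and 3.52 at day 9. Days 0 and 3 overlapped in A02G001051 but not in B02G001775, and in both genes the libraries of days 6 and 9 lay above those of day 0. The differences against day 0 were 0.45 on day 6 and 0.70 on day 9 for A02G001051 (limma adjusted p = 0.0113 and 6.88e-04), and 0.34 and 0.50 for B02G001775 (adjusted p = 0.0390 and 0.00497). On day 3 neither passed (0.11, limma adjusted p = 0.565, and 0.23, adjusted p = 0.188).

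The day 6 call of B02G001775 was lost without any 1 of the 3 day 0 libraries or without day 6 replicate 2 or 3 (limma adjusted p between 0.0540 and 0.114, range 0.00287 to 0.114). The same call was also lost with no filter on low values. A02G001051 was also called 0.35 higher on day 6 than on day 3 (limma adjusted p = 0.0435), a call lost without day 3 replicate 2 or 3, any day 6 library, or day 9 replicate 2 or 3 (adjusted p between 0.0523 and 0.160, range 0.00354 to 0.160). This call was lost as well with no filter and with the replicate block. B02G001775 passed for day 9 over day 6 only without day 9 replicate 1 (0.34, limma adjusted p = 0.0366, against 0.17 and 0.426 with all libraries).

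The 4 genes that carry both WRKY22 and WRKY29 were all below the filter, at mean FPKM of 0.173 to 0.373 over the 12 libraries, and moved in opposite ways by pair. The number 03 genes were highest on day 0. A03G000969 had 1.37, 0.57 and 0.53 FPKM at day 0, 0.07, 0.28 and 0.13 at day 3, 0.14, 0.07 and 0 at day 6, and 0, 0.19 and 0.07 at day 9. B03G001538 had 0.82, 0.56 and 0.80 FPKM at day 0, 0.14, 0 and 0.33 at day 3, 0.07, 0.29 and 0.07 at day 6, and 0, 0.06 and 0 at day 9. Every later library lay below every day 0 library in both. Without the filter limma called both lower on each day, by -0.63, -0.74 and -0.72 for A03G000969 (adjusted p = 0.00903, 0.00158 and 0.00191) and by -0.58, -0.60 and -0.76 for B03G001538 (adjusted p = 0.00206, 7.93e-04 and 1.40e-04).

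The number 01 genes were instead highest on day 6. A01G001166 had 0.07, 0.07 and 0.06 FPKM at day 0, 0.64, 0.07 and 0.35 at day 3, 0.73, 0.84 and 0.82 at day 6, and 0.07, 0.49 and 0.27 at day 9. B01G001065 had 0.07, 0 and 0 FPKM at day 0, 0.21, 0.07 and 0.14 at day 3, 0.36, 0.38 and 0.37 at day 6, and 0, 0.21 and 0.27 at day 9. In both genes all day 6 libraries lay above those of the other days. Without the filter limma called both higher at day 6 than at day 0 (0.75, adjusted p = 0.00118, and 0.42, adjusted p = 0.00116), and neither at day 3 or day 9. The smallest value above 0 in these genes was 0.06 or 0.07 FPKM, so several of these values lie at that lowest step.

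Among the 5 genes named WRKY1, 2 were called higher at day 3, 3 at day 6 and 3 at day 9, and 0 lower, with median changes of 0.12, 0.30 and 0.29. The number 14 pair made up most of the WRKY1 level. B14G001616 had 11.84, 12.12 and 12.82 FPKM at day 0, 14.64, 15.89 and 14.83 at day 3, 17.66, 17.28 and 17.84 at day 6, and 15.44, 15.46 and 14.80 at day 9. A14G001702 had 10.91, 11.49 and 10.60 FPKM at day 0, 12.90, 13.42 and 13.80 at day 3, 14.02, 15.40 and 14.39 at day 6, and 14.57, 15.18 and 12.79 at day 9. In both genes every later library exceeded every day 0 library, and in B14G001616 day 6 was apart from and above all other days. B14G001616 stood 0.28, 0.49 and 0.29 above day 0 on days 3, 6 and 9 (SE 0.047, limma adjusted p = 3.97e-04, 1.43e-06 and 1.21e-04), and A14G001702 0.26, 0.38 and 0.34 (SE 0.064, adjusted p = 0.00585, 2.02e-04 and 5.01e-04). On day 6 these amount to 1.44 and 1.33 times the day 0 mean. B14G001616 rose between days 3 and 6 by 0.21 (limma adjusted p = 0.00185) and was lower again on day 9 than on day 6, by -0.20 (adjusted p = 0.0122).

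The other 3 WRKY1 genes, numbered 02, showed little. A02G000482 had 2.41, 3.52 and 3.08 FPKM at day 0, 3.22, 3.50 and 3.26 at day 3, 3.75, 3.99 and 3.90 at day 6, and 3.31, 3.79 and 4.30 at day 9, so that days 0 and 9 overlapped. It was called higher on day 6 (0.30, limma adjusted p = 0.0229, range 7.53e-04 to 0.103) and day 9 (0.27, adjusted p = 0.0363, range 0.00246 to 0.162). The day 6 call was lost without day 0 replicate 1 (0.18) or day 6 replicate 2 or 3 (0.28 and 0.29), and the day 9 call without day 0 replicate 1 or 3 (0.16 and 0.28) or day 9 replicate 2 or 3 (0.27 and 0.19). The day 9 call was also lost when only the 2 days compared were fitted. B02G002676 had between 3.33 and 4.72 FPKM in all 12 libraries and differed from day 0 by 0.06, 0.06 and 0.02, with no call.

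A02G000483, whose identifier follows directly on that of A02G000482, varied more within a day than any other tested WRKY gene. It had 3.61, 1.98 and 0.23 FPKM at day 0, 0.53, 0 and 1.29 at day 3, 2.26, 1.43 and 1.25 at day 6, and 1.20, 3.79 and 3.61 at day 9. With a standard error of 0.511 it was called on no day, though without day 0 replicate 3, its lowest day 0 library, it passed as lower on day 3 (-1.29, limma adjusted p = 0.0397, against -0.76 and 0.259 with all libraries).

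Of the 6 genes named WRKY2, 5 were tested: 2 were called higher at day 3, 1 lower at day 6 and 2 lower at day 9. The lower calls at day 6 and day 9 include A13G000510, which passed the filter only through days 0 and 3. The number 01 pair was highest on day 3. B01G004663, whose KO entry also names a chloride channel family (clcA, clcB, CLC-E, CLC-F), had 19.05, 19.34 and 19.07 FPKM at day 0, 24.78, 23.77 and 22.96 at day 3, 20.49, 20.59 and 19.52 at day 6, and 18.90, 19.50 and 18.84 at day 9. A01G005018 had 5.08, 4.98 and 5.90 FPKM at day 0, 7.61, 6.54 and 7.05 at day 3, 5.41, 5.38 and 5.69 at day 6, and 6.38, 6.32 and 5.55 at day 9. In both genes all day 3 libraries lay above those of every other day. The day 3 difference was 0.30 ± 0.041 for B01G004663 (limma adjusted p = 8.43e-05) and 0.35 ± 0.077 for A01G005018 (adjusted p = 0.00274), at 1.24 and 1.33 times the day 0 mean.

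Both number 01 genes were lower on day 6 than on day 3, by -0.23 for B01G004663 (limma adjusted p = 3.44e-04) and by -0.31 for A01G005018 (adjusted p = 0.00341). Under median-ratio scaling these became 0.04 (limma adjusted p = 0.448, range 3.19e-04 to 0.448) and -0.07 (adjusted p = 0.423, range 0.00230 to 0.423), so the fall after day 3 rests on the scaling of the deposited FPKM, and for B01G004663 its direction turns. Neither gene passed on day 6 or 9 against day 0 (0.07, limma adjusted p = 0.124, and -0.01, 0.911, for B01G004663; 0.04, 0.638, and 0.17, 0.0704, for A01G005018). A01G005018 passed on day 9 without day 0 replicate 3 (0.23, limma adjusted p = 0.0216) or day 9 replicate 3 (0.22, adjusted p = 0.0303). With median-ratio scaling both were called higher on days 6 and 9.

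The number 13 pair of WRKY2 was low from day 6. A13G000510 had 1.52, 1.54 and 1.43 FPKM at day 0, 1.68, 1.66 and 1.66 at day 3, 0.22, 0.25 and 0.40 at day 6, and 0.40, 0.56 and 0.72 at day 9. The later libraries lay below those of days 0 and 3 without overlap, with differences against day 0 of -0.95 on day 6 (SE 0.095, limma adjusted p = 2.00e-06) and -0.68 on day 9 (adjusted p = 3.79e-05). A13G000510 passed the filter only through days 0 and 3, so a fall from those days was built into its selection. Its mean on day 6 was 0.194 times that of day 0. It passed as higher on day 9 than on day 6 without day 9 replicate 1 (0.35, limma adjusted p = 0.0321, against 0.27 and 0.0635 with all libraries). Its partner B13G000889, below the filter, had 0.65, 0.69 and 0.97 FPKM at day 0, 0.97, 1.12 and 1.04 at day 3, 0.28, 0.49 and 0.33 at day 6, and 0.34, 0.34 and 0.47 at day 9. Without the filter limma called it lower on day 6 (-0.37, adjusted p = 0.00424) and on day 9 (-0.35, adjusted p = 0.00581).

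The number 11 pair of WRKY2 lay between 3.05 and 5.06 FPKM in all libraries. A11G001814 had 5.03, 4.45 and 4.18 FPKM at day 0, 3.86, 5.06 and 3.98 at day 3, 3.99, 3.66 and 3.84 at day 6, and 3.24, 3.73 and 3.17 at day 9. Its day 9 libraries lay below those of day 0, and it was called lower on that day alone (-0.34 ± 0.096, limma adjusted p = 0.00656), a call lost under median-ratio scaling (-0.17, adjusted p = 0.122, range 0.00225 to 0.122). It passed as lower on day 6 without day 3 replicate 2 (-0.20, limma adjusted p = 0.0386, against 0.0784 with all libraries). B11G000012 was called on no day (0.02, -0.12 and -0.10), and passed as lower on day 6 without day 0 replicate 1 (-0.23, limma adjusted p = 0.0479).

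**Figure D3:**
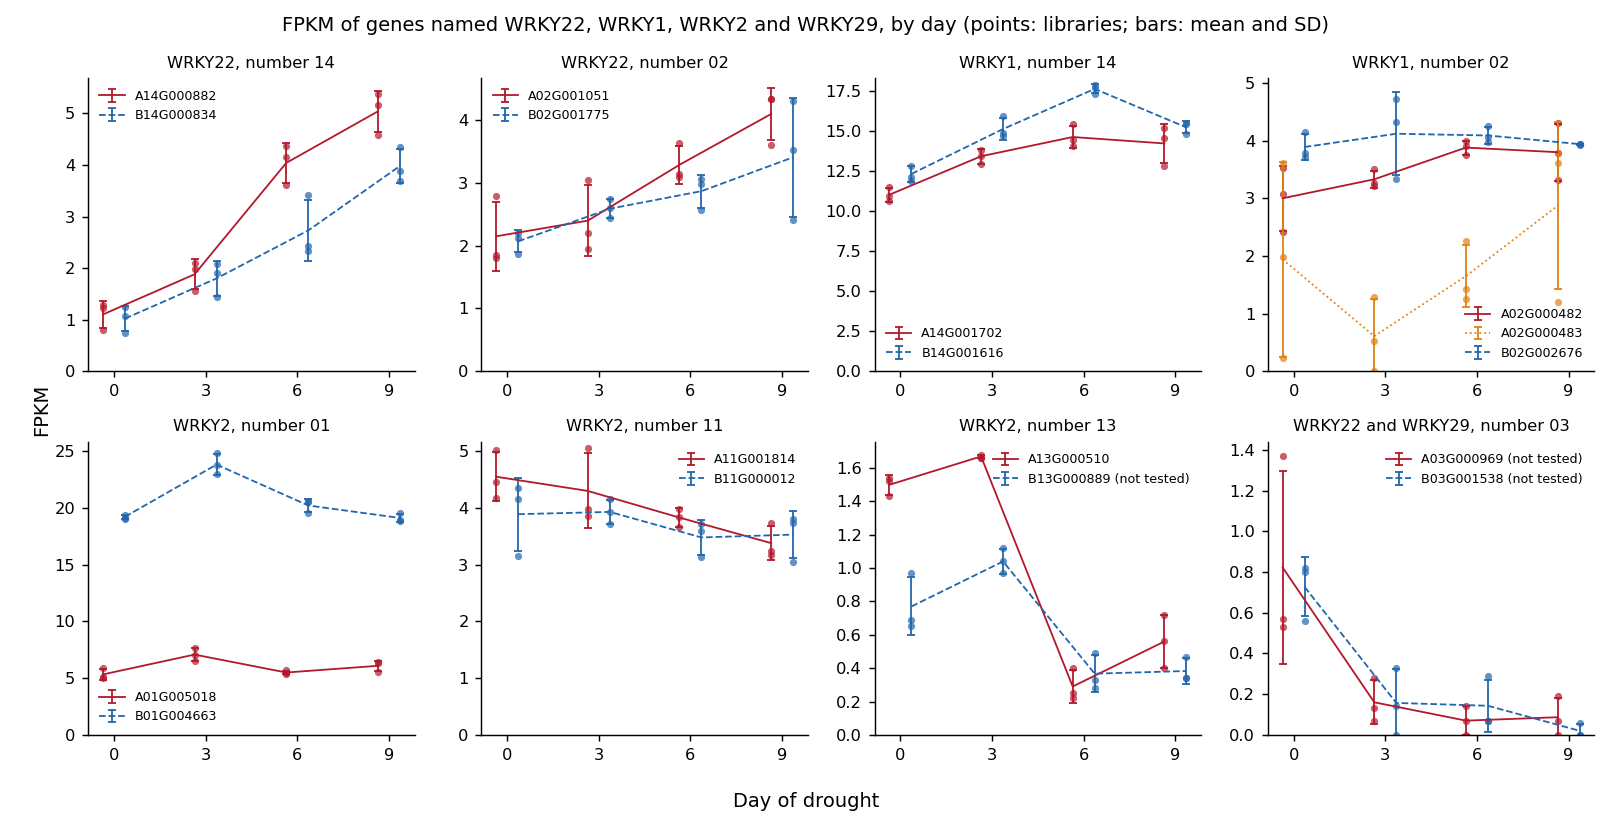
FPKM of the WRKY genes of other names by day of drought, 1 panel per name and identifier number (the 2 WRKY22 and WRKY29 genes of number 01 are given in the text only). Points are libraries and bars the mean with SD (n = 3), with A genes in red and solid (A02G000483 in orange and dotted) and B genes in blue and dashed; the WRKY22 genes lie above day 0 on days 6 and 9, the WRKY2 number 01 pair peaks on day 3, and the WRKY2 number 13 and WRKY22 and WRKY29 number 03 pairs are low from days 6 and 3 on.

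Members with the same name and number and 1 A and 1 B gene formed pairs, and in 8 pairs both genes were tested. The A and B gene had the same call in 8 of the 8 pairs at day 3, in 8 at day 6 and in 7 at day 9 against day 0, in 6 for day 6 against day 3 and in 5 for day 9 against day 6. These counts include pairs with neither gene called. Against day 0 these were WRKY22 number 02 on day 3, WRKY2 number 11 on days 3 and 6, and WRKY2 number 01 on days 6 and 9. For day 9 against day 6 the WRKY33 number 19 pair alone shared a call of a change. Agreement over other A and B genes of the series was not measured. The assignment of reads shared by near-identical copies is not stated, so values of the genes in a pair are uncertain where their sequences are alike. The 2 pairs whose changes on day 6 differed most were WRKY33 number 19 and WRKY22 number 14. In the WRKY33 number 19 pair the A gene had 0.323 of the mean FPKM of the B gene at day 0, 0.452 at day 3, 0.582 at day 6 and 0.641 at day 9, so it gained on its partner at each time. In the WRKY22 number 14 pair this ratio was 1.08, 1.04, 1.48 and 1.27 on days 0, 3, 6 and 9. The WRKY33 number 13 genes changed order, with a ratio of 0.826 at day 0, 0.825 at day 3, 1.04 at day 6 and 1.02 at day 9. In the WRKY2 number 01 pair the B gene stayed the higher one throughout, at ratios of 0.278, 0.296, 0.272 and 0.319. The differences between A and B genes were not tested.

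**Figure D4:**
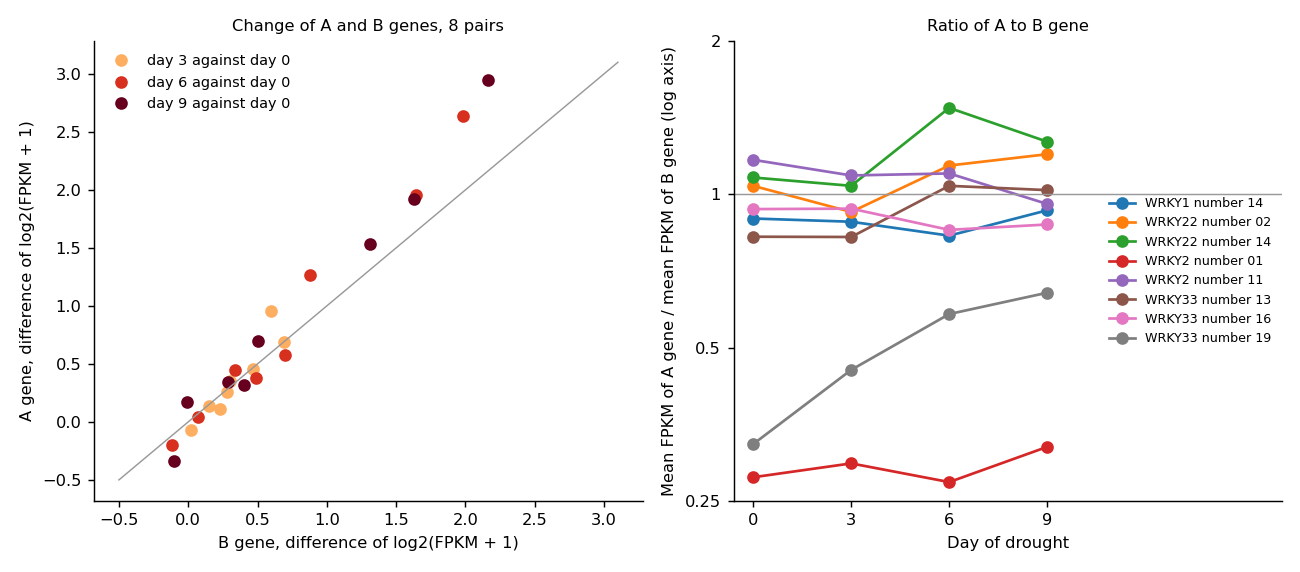
Left, change of the A gene against change of the B gene in the 8 tested pairs on days 3, 6 and 9 against day 0, in log2(FPKM + 1), with the line of equal change. Right, mean FPKM of the A gene over that of the B gene by day, on a log axis; the WRKY33 number 19 ratio is 0.323 at day 0 and 0.641 at day 9, and the WRKY2 number 01 ratio stays near 0.3.

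Other genes on the KEGG maps of plant-pathogen interaction, MAPK signalling and hormone signalling were read from lists of KO names, grouped by role. Of all tested genes 47.7%, 76.8% and 76.9% were called against day 0 on days 3, 6 and 9, and the share called is set beside these in each list. By direction, 22.6%, 29.2% and 30.9% of all tested genes were called higher, and 25.2%, 47.6% and 46.0% lower. Some listed genes reached 1 FPKM in no library of day 0 or in none of days 6 and 9; they passed the filter only through the days on which they were high, so their calls are counted but show nothing by themselves. At the cell surface, 22 genes named for the receptors FLS2 and CERK1 (a receptor for chitin) or the co-receptor BAK1 included 9 tested ones. Of these 2 were called higher and 3 lower at day 3, 3 higher and 5 lower at day 6, and 3 higher and 5 lower at day 9 against day 0; median-ratio scaling gave 4 and 4 at day 6. These are 55.6%, 88.9% and 88.9% of the 9. Of the 5 CERK1 genes 3 were tested and called higher on days 6 and 9, but B14G001517, with 0.140 ± 0.122 FPKM at day 0 and 4.78 ± 0.165 at day 6, passed the filter only through days 6 and 9. B02G002617, a CERK1 gene that reached 1 FPKM throughout, had 7.60 ± 0.0603 FPKM at day 0, 11.0 ± 0.392 at day 3, 22.2 ± 1.35 at day 6 and 20.5 ± 0.908 at day 9. Of the 13 FLS2 genes 2 were tested and called lower on each day. A04G000733, with 3.32 ± 0.0907 FPKM at day 0 and 0.907 ± 0.0569 at day 3, passed the filter only through day 0. B04G000664 had 10.0 ± 0.416 FPKM at day 0, 6.96 ± 0.246 at day 3, 2.36 ± 0.200 at day 6 and 1.50 ± 0.594 at day 9.

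The MAP kinase cascade, which in Arabidopsis carries signals to WRKY33 and WRKY22, held 48 tested genes of 67. Against day 0, 7 were called higher and 13 lower at day 3, 24 higher and 16 lower at day 6, and 20 higher and 18 lower at day 9; median-ratio scaling gave 29 higher and 10 lower at day 6 and 25 higher and 11 lower at day 9. The shares called, 41.7%, 83.3% and 79.2%, lay near those of all tested genes. The median change was -0.08, 0.21 and 0.05 on the 3 days. All 4 MPK3 genes were called higher on days 6 and 9, and 1 of them on day 3. B01G002872, the MPK3 gene with the largest rise, had 5.35 ± 0.890 FPKM at day 0, 5.51 ± 0.214 at day 3, 23.0 ± 0.540 at day 6 and 20.5 ± 0.503 at day 9. Of the 3 genes named MPK6 alone, 1 was called higher on day 6 and 1 on day 9 (3 and 2 under median-ratio scaling). B18G000528, named for the kinase kinase MKK2, had 21.3 ± 1.40, 34.5 ± 3.62, 59.0 ± 2.57 and 50.9 ± 0.771 FPKM on days 0, 3, 6 and 9. Of the 4 MKK2 genes, 2 were called higher and 2 lower on day 6, and 1 and 2 on day 9. Median-ratio scaling gave 2 and 0, and 1 and 0. Of 4 tested genes named MKK9, 0 were called higher, while 2 were called lower on day 3 and 3 on days 6 and 9. The MKK9 gene B12G000549 had 113 ± 4.70, 56.3 ± 4.85, 20.1 ± 1.21 and 12.5 ± 2.52 FPKM. All 4 genes named MPK1_2 were called lower on days 6 and 9 (2 on each day under median-ratio scaling).

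Nuclear partners and other transcription factors of these maps (MKS1, VIP1, TGA, NPR1 and EIN3) held 50 tested genes of 78, with 19 called higher and 14 lower at day 3, 19 and 19 at day 6, and 19 and 22 at day 9; median-ratio scaling, with 51 tested, gave 27 and 16 at day 6 and 21 and 17 at day 9. The shares called were 66.0%, 76.0% and 82.0%. All 4 genes named VIP1, in Arabidopsis a bZIP factor phosphorylated by MPK3, were called higher on each day. Of the 10 tested NPR1 genes, 1 was called higher and 6 lower on day 3, and 1 and 7 on day 6. On day 9, 0 NPR1 genes were called higher and 7 lower. Of the 4 tested MKS1 genes, named for the protein that holds WRKY33 in Arabidopsis, 0 were called higher and 1 lower on each day. A02G001822, named TGA after the bZIP factors that bind NPR1, had 6.66 ± 0.346 FPKM at day 0, 52.7 ± 1.66 at day 3, 217 ± 5.13 at day 6 and 175 ± 4.43 at day 9. B04G001927, named EIN3 after the ethylene-signalling factor, had 216 ± 3.63, 127 ± 2.31, 81.8 ± 1.85 and 91.6 ± 2.51 FPKM. A09G001496, an EIN3 gene with the highest mean of this list, had 162 ± 5.65, 165 ± 3.41, 211 ± 1.90 and 180 ± 7.22 FPKM. Of 20 tested TGA genes, 7 were called higher and 7 lower on day 6, and 9 and 10 on day 9. For the 12 tested EIN3 genes these counts were 7 and 4, and 6 and 4. Median-ratio scaling gave 8 and 3, and 7 and 3, for EIN3. With 21 TGA genes tested it gave 13 and 6, and 9 and 7.

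Calcium channels and the oxidative burst (CNGC, RBOH and OXI1 names) held 43 tested genes of 70, with 22 called higher and 8 lower at day 3, 17 and 18 at day 6, and 16 and 21 at day 9; median-ratio scaling, with 41 tested, gave 18 and 14 at day 6 and 17 and 17 at day 9. The shares called were 69.8%, 81.4% and 86.0%, and 9 of the 43 passed the filter only through the earlier or the later days. B03G001794, named RBOH after the NADPH oxidases that make extracellular superoxide, had 1.42 ± 0.427 FPKM at day 0, 3.33 ± 0.107 at day 3, 46.8 ± 0.612 at day 6 and 44.4 ± 1.08 at day 9. A12G000303, of the same name, had 4.11 ± 1.84, 0.380 ± 0.534, 0.137 ± 0.0702 and 0.147 ± 0.0404 FPKM, and passed the filter only through day 0. Both tested genes named OXI1, a kinase that responds to reactive oxygen in Arabidopsis, were called higher on each day, though 1 of them, B02G002370, reached 1 FPKM in no day 0 library. Of 27 tested CNGC genes, 11 were called higher and 7 lower on day 3, and 6 and 16 on day 6. On day 9, 6 were called higher and 17 lower. Median-ratio scaling, with 26 CNGC genes tested, gave 7 and 12 at day 6 and 6 and 15 at day 9. Of 14 tested RBOH genes, 9 were called higher and 2 lower on day 6, and 8 and 4 on day 9. Among these RBOH genes, 3 passed the filter only through the later days and 2 only through the earlier days. For CNGC genes these numbers were 1 and 2. The direction of such genes was built into their selection. Immune receptors inside the cell and their partners held 76 tested genes of 188, with 12 called higher and 22 lower at day 3, 30 and 32 at day 6, and 27 and 30 at day 9; median-ratio scaling gave 36 and 25 at day 6 and 34 and 27 at day 9. The shares called were 44.7%, 81.6% and 75.0%, near those of all tested genes, and 11 of the 76 passed the filter only through the earlier or the later days. Of the 11 tested genes named PTI1, a kinase, 9 were called higher and 0 lower on days 6 and 9. Over all tested genes, 29.2% and 30.9% were called higher on these days, and 47.6% and 46.0% lower. Of 15 tested genes of the receptor name RPM1, 2 were called higher and 11 lower on day 6, and 2 and 10 on day 9. For the 27 RPS2 genes these counts were 7 and 15, and 5 and 12. Median-ratio scaling gave 2 and 9 on both days for RPM1 genes, and 7 and 12, then 7 and 11, for RPS2 genes. Among these, 4 RPM1 and 2 RPS2 genes passed the filter only through the earlier days, and 1 RPM1 gene only through the later days.

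Defence outputs held 8 tested genes of 12, all named PR1 or CHIB (a basic chitinase); 3 were called higher and 4 lower at day 3, 1 and 6 at day 6, and 2 and 5 at day 9, and median-ratio scaling gave 2 and 6 at day 6. That is 87.5% of the 8 on each day, and B01G003044, a PR1 gene, passed the filter only through day 0. B09G000835, a PR1 gene, had 24.0 ± 1.56 FPKM at day 0, 59.5 ± 4.45 at day 3, 179 ± 6.21 at day 6 and 165 ± 8.63 at day 9. It was the 1 PR1 gene of 4 tested that was called higher on day 6, while 2 were called lower. B09G001415, a CHIB gene, had its peak on day 3, with 374 ± 11.2, 1680 ± 44.6, 232 ± 0.566 and 493 ± 110 FPKM. All 4 tested CHIB genes were called lower on day 6. The CHIB gene B04G001800 had 199 ± 1.76, 56.7 ± 0.949, 36.3 ± 4.77 and 59.3 ± 5.34 FPKM on days 0, 3, 6 and 9. The outputs thus differed in direction among themselves. None of these lists was tested as a set.

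**Figure D5:**
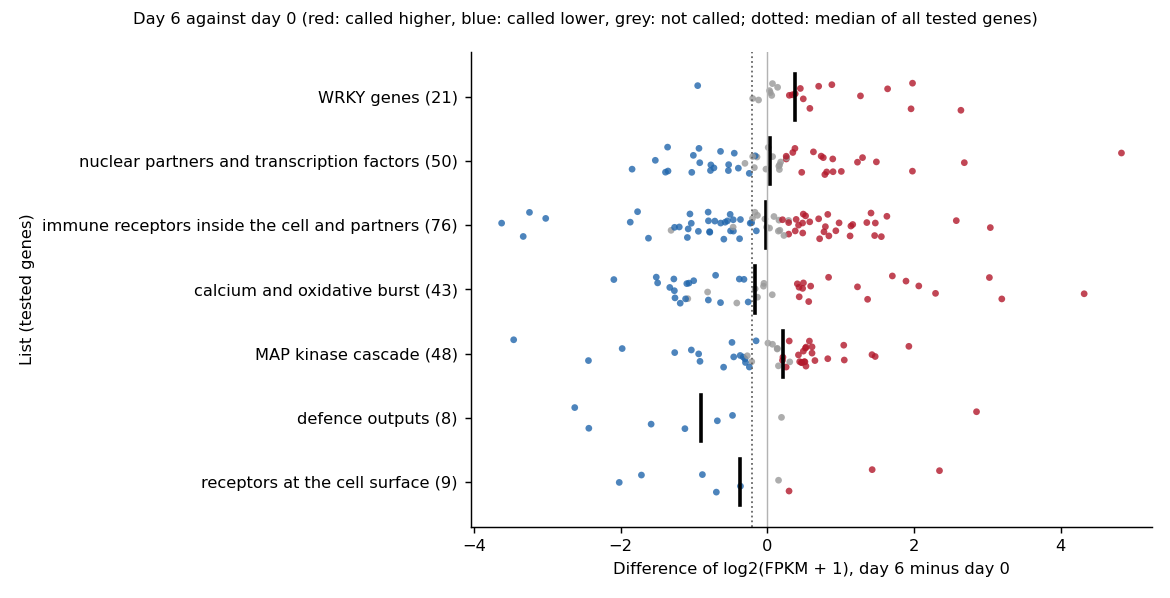
Difference of log2(FPKM + 1) on day 6 minus day 0 for each tested gene, by list (number of tested genes in brackets), with the list median as a black bar and the median of all tested genes (-0.21) as a dotted line. Red points were called higher, blue lower and grey not called; the WRKY median lies at 0.38, and every list holds both red and blue points.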

How the data were processed

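RNA from 12 leaf libraries was measured. The values are FPKM per gene model, as deposited by the authors; the sources used here do not give the aligner, genome build or FPKM program. Subset tables for each day were not used, since those for days 3 and 6 were identical. Depth is unknown, so no counting interval could be given.

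Values were analysed as log2(FPKM + 1) for genes that reached an FPKM of 1 in 3 or more libraries (40736 of 85392 models, of which 26975 were listed at 0 throughout). limma 3.58.1 in R 4.3.3 (with statmod 1.5.0) was fitted to all libraries with 1 mean per day, an intensity trend and robust moderation. P-values were adjusted by Benjamini-Hochberg within each comparison over all tested genes. The procedure was tested on simulated data in which few genes changed, all upward. Such data do not bear on the scaling between days. Tables and figures used Python 3.11.15, pandas 2.3.3, numpy 2.4.6 and matplotlib 3.10.9.

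Pathway genes were matched by KO name, which 29172 models carry, among genes on the KEGG maps of plant-pathogen interaction, MAPK signalling and hormone signalling, because a few names also stand for unrelated proteins; names without a match were left out. The members and all lists were chosen with earlier results of these data known. Every WRKY gene is given. Pathway genes are examples from a rule (highest mean, and largest called rise and fall per day, in each list), and KO names, and genes named for how they passed the filter, were singled out after their values were seen. Alternatives were a pseudocount of 0.1, no filter, a mean of at least 5 FPKM, median-ratio scaling, no trend or robust moderation, fitting the 2 days compared alone, a replicate block, and leaving out each library.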

Additional observations from a re-analysis of the deposited data

Results flagged for a closer look

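Each of the following was singled out because the change against day 0 differed between 2 days by limma's test of that difference. Between days 6 and 3 the gain on day 6 was 1.82 for A13G001064 (limma adjusted p = 5.94e-12), 1.68 for A19G001344 (adjusted p = 3.58e-09) and 1.49 for B13G001491 (adjusted p = 9.30e-12), all named WRKY33, with every day 6 library above every day 3 library. The 2 WRKY2 genes of number 01 were lower on day 6 than on day 3, A01G005018 by -0.31 and B01G004663 by -0.23 in log2, and in both the day 6 libraries lay below those of day 3. Neither passed under median-ratio scaling (-0.07, limma adjusted p = 0.423, and 0.04, adjusted p = 0.448).

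Between days 9 and 6 the WRKY33 genes A19G001344 and B19G001482 were higher on day 9 by 0.31 and 0.18, with 3 of 3 day 9 libraries above all of day 6 in each. The WRKY33 gene B16G000189 changed by -0.30 and the WRKY1 gene B14G001616 by -0.20, with 3 of 3 day 9 libraries below all of day 6. Of these 4, the call of B14G001616 alone was kept in every alternative run.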

How the results depend on the processing

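No called WRKY change turned its direction in the alternatives run, except that of the WRKY2 gene B01G004663 for day 6 against day 3, which was 0.04 under median-ratio scaling (limma adjusted p = 0.448). Under that scaling its uncalled -0.01 for day 9 against day 0 became a called 0.20 (adjusted p = 9.60e-04). Calls kept in every alternative that tested the gene were 11 of 12 on day 3, 12 of 14 on day 6 and 13 of 15 on day 9; for the step from day 3 to day 6 they were 7 of 11, and for the step to day 9 they were 1 of 5. Of these kept calls 1, 4, 5, 2 and 0 were of genes with a mean under 5 FPKM, which that alternative did not test. With a mean of at least 5 FPKM, fewer WRKY genes were tested: 8 were higher and 0 lower on day 6, 8 and 0 on day 9, and 5 higher for day 6 against day 3, with medians of 0.33 (day 3), 0.64 (day 6) and 0.16 for day 6 against day 3. With no filter, 3 were lower at day 3, 5 at day 6 and 6 at day 9, the day 3 median was 0.15, and 1 was higher on day 9 than on day 6. Median-ratio scaling gave 1 lower on day 9, 1 lower in the step to day 6, and 1 higher and 4 lower for day 9 against day 6, with medians of 0.64 (day 6) and 0.54 (day 9), of 0.38 for day 6 against day 3, and of -0.07 in the last step. Fitting only the 2 days compared gave 1 higher for day 9 against day 6.

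Leaving out 1 library at a time, the number higher ranged from 11 to 12 (day 3), 11 to 13 (day 6) and 12 to 13 (day 9), from 6 to 8 for day 6 against day 3, and from 1 to 3 in the last step; the number lower from 0 to 1, 1 to 2, 2 to 2, 3 to 3 and 1 to 3; and the median from 0.18 to 0.25, 0.34 to 0.41, 0.29 to 0.37, 0.08 to 0.16 and -0.03 to 0.03. Libraries with the same replicate number did not deviate together (correlations of -0.027 to 0.038), and the main fit did not pair them. Such correlations cannot show whether the samples were matched in the experiment. With the replicate block 1 WRKY gene was higher on day 9 than on day 6, and 7 on day 6 than on day 3; the counts against day 0 were as reported.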
